A study of Mus musculus with 4 samples.

Results

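The nuclear receptor superfamily apart from the REV-ERB and ROR receptors was examined as a set of 42 named genes in 2 peak lists of NR1D1 (REV-ERB alpha) chromatin binding. The members were taken by name, and every deposited peak that overlapped a member's RefSeq span, extended by 10 kb on each side, was assigned to it. All 42 were found among the 21887 protein-coding genes of the mm10 gene table. The lists came from wild-type (WT) primary vascular smooth muscle cells of mouse aorta, 1 after 24 h with PBS (phosphate-buffered saline) and 1 after 24 h with vasostatin-2, a fragment of chromogranin A. Both carried the label batch1, and the sources used here name no strain, age, sex or dose. CUT&Tag directs a transposase to the antibody target, so that nearby DNA is released and sequenced. With 1 NR1D1 library for each treatment there was no replicate error and no test of the treatment. The matching IgG libraries were not analysed here. Intervals below are 95% Wilson intervals and cover counting error only.

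Nuclear receptors are transcription factors that share a DNA-binding domain, and most also bind a small lipophilic ligand such as a steroid, thyroid hormone, retinoic acid, oxysterol or fatty acid. Many recognise the core motif AGGTCA as monomers, as homodimers or as heterodimers with an RXR. NR1D1 binds the same core preceded by an A/T-rich flank and represses transcription through a corepressor with histone deacetylase activity. In vascular smooth muscle, PPARs, LXRs, NR4A factors and the glucocorticoid and mineralocorticoid receptors are known to affect growth, lipid handling, inflammation and tone.

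The sequences below are shown because a peak overlapped the window from 250 bases before to 50 after a member's annotated transcript start. Each gives the 250 bases before that start. At Nr2c2, Nr4a3, Nr2f6 and Rarb no peak covered the start base itself. All are RefSeq promoter sequences of GRCm38.p6, the assembly behind mm10, in which 38 of the 42 members matched with 58 starts. Thra, Hnf4g, Nr3c1 and Nr5a1 were not matched. Start windows of Rxrb and Nr6a1 also overlapped a PBS peak, and their sequences are not shown. A peak of each list overlapped the bases shown at Esrra, Nr2c2 and Nr4a3, and a PBS peak those at Nr4a1 and Nr2f6. Some of these overlaps were partial, so that marked letters can lie outside a peak. At Rarb the PBS peak began just past the start, so the bases shown lie beside it. Capitals mark TGACG on either strand (the CREB site core), a CArG box (the binding site of serum response factor) in Nr2f6, and a direct repeat of the retinoic acid receptor type in Rarb. These motifs were chosen after the sequences had been read, and Esrra holds none of them.
Esrra (chr19:6921809-6922058, minus strand): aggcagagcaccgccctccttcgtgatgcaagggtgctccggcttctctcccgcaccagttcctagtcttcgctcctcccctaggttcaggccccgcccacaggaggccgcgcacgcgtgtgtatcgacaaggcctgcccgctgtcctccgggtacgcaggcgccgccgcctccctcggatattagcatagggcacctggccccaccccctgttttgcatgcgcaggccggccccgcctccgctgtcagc
Nr2c2 (chr6:92092183-92092432, plus strand): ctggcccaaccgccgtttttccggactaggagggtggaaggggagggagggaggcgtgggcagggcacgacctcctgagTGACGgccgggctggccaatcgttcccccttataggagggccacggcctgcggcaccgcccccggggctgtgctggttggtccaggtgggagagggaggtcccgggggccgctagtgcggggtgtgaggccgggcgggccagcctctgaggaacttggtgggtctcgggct
Nr4a3 (chr4:48045055-48045304, plus strand): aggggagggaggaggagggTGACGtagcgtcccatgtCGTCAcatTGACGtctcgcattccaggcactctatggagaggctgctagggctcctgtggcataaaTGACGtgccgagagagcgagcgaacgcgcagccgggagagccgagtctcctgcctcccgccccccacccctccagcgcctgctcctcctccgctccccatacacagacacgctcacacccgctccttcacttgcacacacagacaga
Nr4a1 (chr15:101266596-101266845, plus strand): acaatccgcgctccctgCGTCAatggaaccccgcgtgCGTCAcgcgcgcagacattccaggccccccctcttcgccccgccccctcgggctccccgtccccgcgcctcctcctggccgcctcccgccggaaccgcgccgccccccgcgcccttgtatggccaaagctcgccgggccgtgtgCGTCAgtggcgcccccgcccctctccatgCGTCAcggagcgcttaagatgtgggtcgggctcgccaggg
Nr2f6 (chr8:71381953-71382202, minus strand): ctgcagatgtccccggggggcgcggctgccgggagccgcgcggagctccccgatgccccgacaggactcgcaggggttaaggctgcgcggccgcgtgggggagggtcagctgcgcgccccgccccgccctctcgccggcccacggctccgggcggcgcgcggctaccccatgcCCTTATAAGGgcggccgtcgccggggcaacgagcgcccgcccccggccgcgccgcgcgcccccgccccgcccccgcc
Rarb (chr14:16575477-16575726, minus strand): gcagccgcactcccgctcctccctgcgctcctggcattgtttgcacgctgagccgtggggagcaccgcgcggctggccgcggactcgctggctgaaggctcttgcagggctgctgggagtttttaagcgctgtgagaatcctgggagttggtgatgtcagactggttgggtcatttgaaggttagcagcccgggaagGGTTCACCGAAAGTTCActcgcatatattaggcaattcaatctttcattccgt

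AGGTCA was in none of these windows when the 50 bases after the start were included. Among 13 start windows of members with a PBS summit within 1 kb, it was in 2, both of Pparg, beginning 28 and 9 bases before their starts. Over all 58 member windows it was in 11 (19.0%), and over 21263 windows of protein-coding genes in 14.7%. Of the latter, it was in 11.1% of windows with a PBS summit within 1 kb and in 10.2% with a vasostatin-2 summit. Windows of protein-coding genes with neither held it in 15.5%. Searched on both strands as exact letters, TAGGTCA, the same with AAN before it, and direct repeats of AGGTCA with 1, 2 or 4 bases between were in 0 member windows. Each of these contains AGGTCA. Of all windows, 2.32% held TAGGTCA, 0.155% its form with AAN and 0.047% the repeat with 1 base between, while the repeats with 2 or 4 bases between were in 0. TAGGTCA was in 1.85% of all windows with a PBS summit within 1 kb, 2.1% with a vasostatin-2 summit and 2.42% with neither. A missing match says only that these letters are not in these 300 bases. Sequence under the peaks away from annotated starts was not analysed here.

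All 3 NR4A starts held TGACG 4 times, in Nr4a1 beginning 233, 213, 69 and 40 bases before the start and in Nr4a3 231, 213, 205 and 147 bases before it. Nr4a2, which had no peak at its start, held it at 200, 144, 123 and 111 bases. The Nr4a1 PBS peak covered all 4 of its sites. At Nr4a3 the PBS peak, which ended at base 48045088, covered only the site at 231 bases. The vasostatin-2 peak there ended at base 48045059 and covered none. Windows with at least 4 matches, a limit chosen after the sequences had been read, made up 0.325% of all windows. Those with at least 1 made up 23.6%. Among windows of all protein-coding genes with a PBS summit within 1 kb of the start, these shares were 0.689% and 38.5%. The Nr2f6 CArG box began 77 bases before the start, a motif found in 1.52% of all windows. It lay between the start and the PBS peak, chr8:71382074-71382424, which did not reach the box. The Rarb repeat, GGTTCA and AGTTCA with 5 bases between, began 53 bases before the start, and no other window of a protein-coding gene held these letters on either strand. A retinoic acid response element near the Rarb start is textbook knowledge. The Rarb peak, chr14:16575244-16575450, lay on the transcribed side of the start.

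NR1D1 peaks were found at 28 of the 42 receptor genes. In PBS-treated cells 23 members had at least 1 peak (54.8%, 40.0 to 68.8), against 29.5% of all protein-coding genes. In vasostatin-2-treated cells 21 members did (interval 35.5 to 64.5%), against 28.0%. Members with a peak in both lists numbered 16, and 17.5% of all genes had one. The PBS list alone marked 7 members (12.0% of all genes) and the vasostatin-2 list alone 5 (10.5%). The other 14 had no peak, as did 60.0% of all genes. With a -log10 q of at least 5 the counts were 11 in PBS (13.9% of all genes), 6 in vasostatin-2 (9.61%) and 4 in both (6.12%). With at least 8 fragments at the summit they were 17 (19.6% of all genes), 12 (16.0%) and 10 (11.0%).

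Among all genes the share with a peak rose with gene length, so the members were also counted by length. Of 12 members under 20 kb, 7 had a PBS peak (24.1% of all genes of that length) and 5 a vasostatin-2 peak (20.6%). Of 19 members of 20 to 100 kb, 10 and 9 did (33.7% and 32.1% of all such genes). Of 11 members over 100 kb, 6 and 7 did (43.1% and 51.3%). Per megabase of gene and flank, members under 20 kb held 30.5 PBS and 16.6 vasostatin-2 peaks, where all genes of that length held 10.6 and 8.85. Members of 20 to 100 kb held 11.8 and 10.3, against 6.53 and 6.17. For members over 100 kb the figures were 2.88 and 3.46, against 2.22 and 3.05. The part of expression, which was not measured in the data used here, was not tested.

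**Figure D1:**
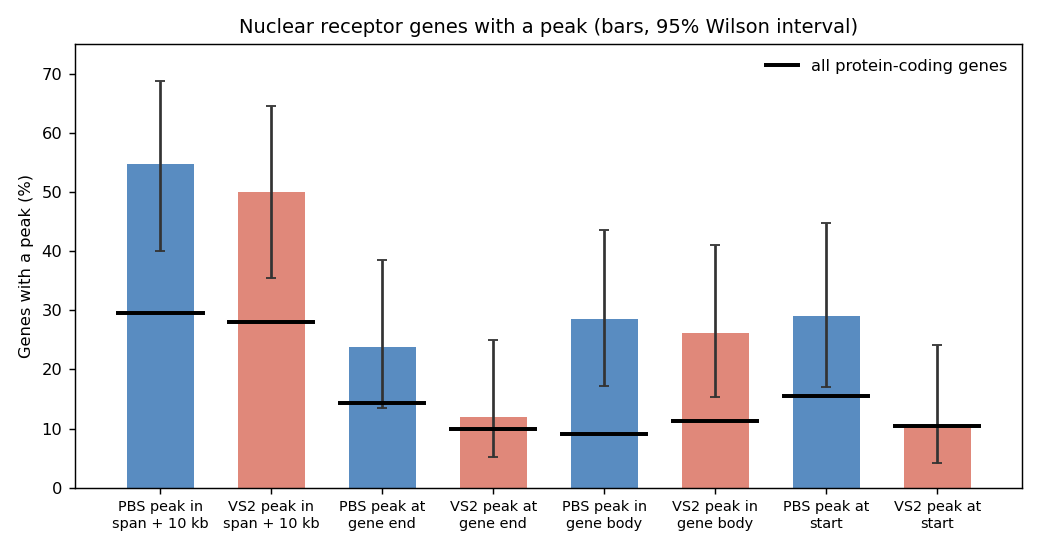
Percentage of the 42 receptor genes (38 for annotated starts) with a peak in the gene span plus 10 kb, at a gene end, in the gene body or within 1 kb of an annotated start. Blue bars are the PBS list and red bars the vasostatin-2 list (VS2), whiskers are 95% Wilson intervals, and black lines give the percentage of all protein-coding genes. In the start classes the PBS bar stands at 28.9% above a line at 15.5%, and the vasostatin-2 bar at 10.5% meets its line at 10.4%.

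The member windows held 37 PBS peaks and 32 vasostatin-2 peaks. A gene end was counted where the summit lay within 1 kb of either end of the member's span. In the PBS list 13 peaks (35.1%, 21.8 to 51.2) lay there, 15 (40.5%) inside the gene and 9 (24.3%) in the flank. In the vasostatin-2 list 5 (15.6%, 6.86 to 31.8) lay at a gene end, 17 (53.1%) inside the gene and 10 (31.2%) in the flank. The intervals of both gene-end shares overlap. Over the windows of all protein-coding genes the gene-end share was 39.3% in PBS and 28.2% in vasostatin-2. For members under 20 kb, 8 of 11 PBS peaks (72.7%) and 2 of 6 vasostatin-2 peaks (33.3%) lay at gene ends. For members of 20 to 100 kb, 3 of 16 (18.8%) and 3 of 14 (21.4%) did. For all genes these shares were 45.7% and 38.2% under 20 kb, and 42.6% and 31.5% for 20 to 100 kb. Of the 8 PBS end peaks of members under 20 kb, 5 were nearer to another gene's end, at Nr1h2, Nr1h3, Rxrb and Esrra. Over 100 kb 2 of 10 PBS and 0 of 12 vasostatin-2 peaks of members lay at an end, and 17.4% and 9.06% of those of all genes. The vasostatin-2 share at member ends rose to 25.0% with a limit of 3 kb and to 28.1% with ends of any annotated gene, where the PBS shares were 37.8% and 45.9%.

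By gene, 10 members had a PBS peak at an end (14.3% of all genes) and 5 a vasostatin-2 peak (10.0%). Peaks inside the gene marked 12 members in PBS (9.08% of all genes) and 11 in vasostatin-2 (11.3%). Within 1 kb of an annotated start, 11 of 38 members had a PBS peak (15.5% of all genes with a listed start) and 4 a vasostatin-2 peak (10.4%). These 4, Esrra, Nr1h2, Nr2c2 and Nr4a3, had a start peak in both lists (7.43% of all such genes). In the PBS list alone the start peak was seen at Nr2f6, Nr4a1, Nr6a1, Pparg, Rarb, Rarg and Rxrb. A start peak missing from the vasostatin-2 list is not shown to be absent from that library.

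**Figure D2:**
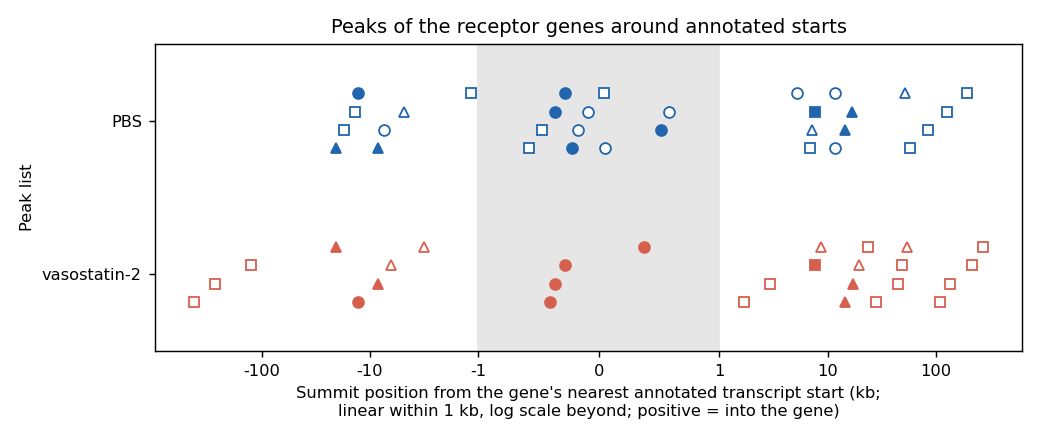
Position of each summit from the member's nearest annotated transcript start in kb, linear within 1 kb (grey) and on a log scale beyond, positive into the gene. Circles are gene ends, squares gene bodies and triangles flanks, filled where the peak overlaps the other list. Of 32 PBS summits (blue) 11 fall in the grey band, and of 28 vasostatin-2 summits (red) 4 do, all filled.

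Some of these peaks lay closer to a neighbour than to the receptor gene. In the PBS list 14 of 37 peaks were nearest to an end of another protein-coding gene, and in the vasostatin-2 list 9 of 32. Within 1 kb of an annotated start of another gene lay 9 PBS and 3 vasostatin-2 peaks. Of the 13 PBS peaks at member ends, 5 were nearer to another gene's end. The matching shares of peaks over all gene windows were not computed, so these counts are not shown to be particular to receptor genes. With peaks nearest to the member's own ends alone, 17 members had a PBS peak (21.1% of all genes under the same rule), 16 a vasostatin-2 peak (20.7%) and 12 both (11.2%). Of these peaks 34.8% and 21.7% were at gene ends.

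Peaks that overlapped between the lists held more fragments by median than the rest. Of the member peaks 12 in each list overlapped the other by at least 1 bp, 32.4% of the PBS and 37.5% of the vasostatin-2 peaks. Over all gene windows, where a peak counts once for each gene it meets, the shares were 39.7% and 41.1%, both above the member shares. Over all peaks of each list they were 35.6% and 30.05%, and the vasostatin-2 member share was above the latter. Each of these values lies within the interval of the member share (19.6 to 48.5% in PBS, 22.9 to 54.8% in vasostatin-2). The overlapping member peaks lay at 9 members, and 13.5% of all genes had a PBS peak of this kind. All 5 vasostatin-2 peaks at member ends overlapped a PBS peak, against 2 of 17 inside members. In the PBS list 5 of 13 at ends and 2 of 15 inside overlapped. Over all gene windows, 65.3% of vasostatin-2 peaks at ends and 22.6% inside genes were shared, and in PBS 45.4% and 29.98%. Shared member peaks held a median of 14.5 fragments in PBS and 10.5 in vasostatin-2, and the others 8 and 7. Over all peaks these medians were 11 and 10 for shared peaks, and 7 and 6 for the others. Of the member peaks with at least 8 fragments 38.5% of PBS and 58.8% of vasostatin-2 peaks were shared. The matching share over all peaks was not computed.

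The median fold of member peaks was near that of each list, while their median fragments and -log10 q were above those of all peaks. The highest folds of the lists, 39.6 in PBS and 42.4 in vasostatin-2, lay elsewhere. Member peaks ran from 3.71-fold to 8.59-fold enrichment in PBS (median 5.43, all peaks 5.33) and from 3.62-fold to 8.40-fold in vasostatin-2 (median 5.29, all peaks 5.07). Fold, -log10 p and -log10 q are the authors' values and are ranked only within their list. The -log10 p ran from 4.73 to 22.2 in PBS and from 4.31 to 14.4 in vasostatin-2, and the -log10 q from 1.65 to 17.4 and from 1.31 to 9.80. The median -log10 q was 4.525 in PBS (all peaks 3.764) and 3.877 in vasostatin-2 (all peaks 3.175). Among the highest 10% of its list by fold were 2 PBS and 3 vasostatin-2 peaks of members. Summits of member peaks held 4 to 34 fragments in PBS (median 10, all peaks 8) and 4 to 20 in vasostatin-2 (median 8, all peaks 7). Fewer than 8 were held by 11 of 37 PBS and 15 of 32 vasostatin-2 member peaks. Over all peaks 3471 of 7377 and 4881 of 8816 held fewer than 8. The 5 PBS peaks of highest fold were at Nr2c2, Esrra, Nr3c1, and in the Thra window, which held 2. In vasostatin-2 they were at Nr4a2, Nr2c1, Esrra, Nr3c2 and Esrra again. At the edge of the window, the farthest peaks counted lay 8921 bp (PBS) and 9229 bp (vasostatin-2) from Nr4a1, and the nearest left out lay 11825 bp (PBS) and 11807 bp (vasostatin-2) from Ppard.

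**Figure D3:**
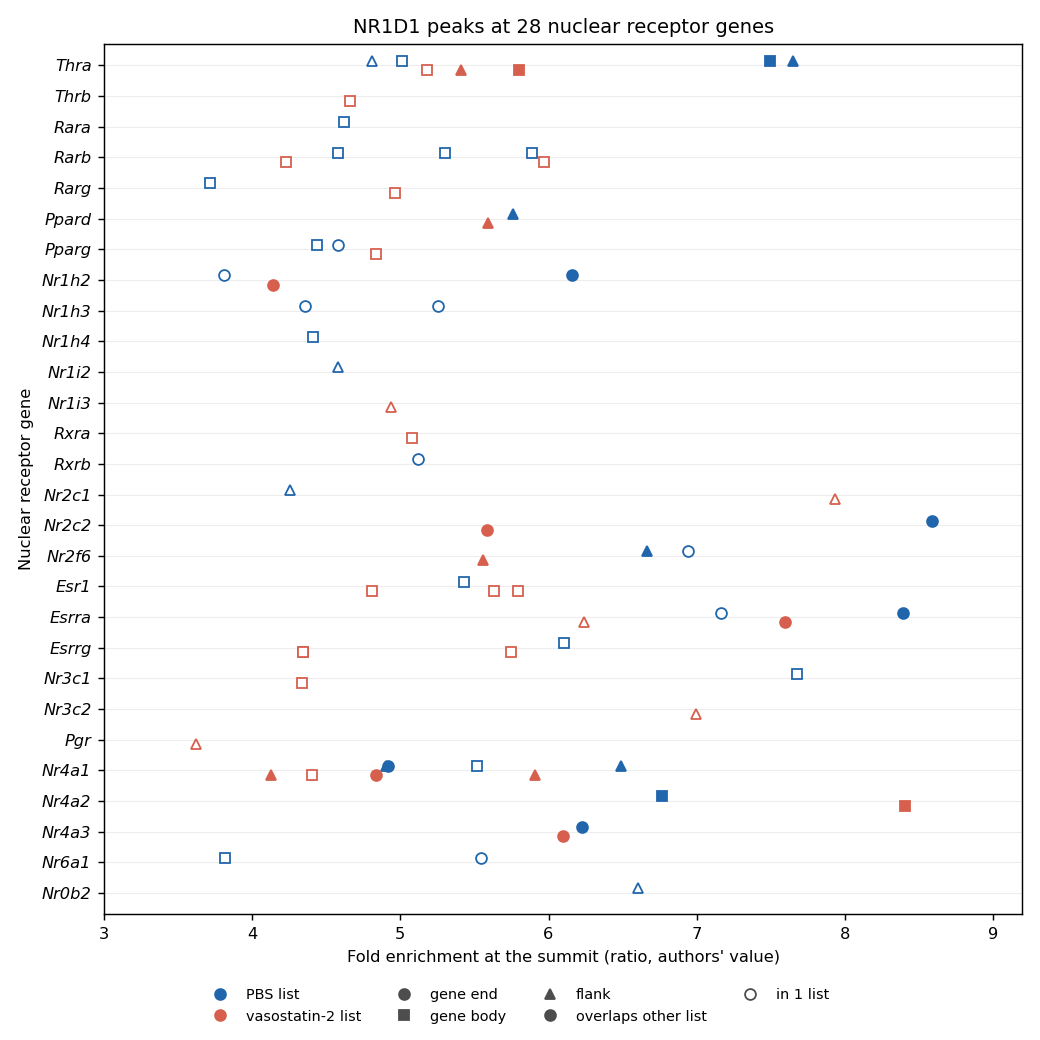
Fold enrichment of each peak in the windows of the 28 receptor genes with a peak, in PBS (blue) and vasostatin-2 (red), each on its own list's scale. Circles are gene ends, squares gene bodies and triangles flanks, filled where the peak overlaps the other list. The PBS peak of Nr2c2 stands highest at 8.59-fold, and the vasostatin-2 peak of Nr4a2 at 8.40-fold.

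The thyroid hormone and retinoic acid receptors all had a peak, mostly inside the gene. Each of these 5 genes was marked, 4 in PBS and 4 in vasostatin-2, with 3 in both, and 0 had a peak at an end of its span. Of all genes 29.5% had a PBS peak, 28.0% a vasostatin-2 peak and 17.5% both, and 14.3% and 10.0% had one at an end. Rarb and Thrb are over 100 kb, where 43.1% of all genes had a PBS and 51.3% a vasostatin-2 peak. Thra, which encodes thyroid hormone receptor alpha, had 4 PBS and 3 vasostatin-2 peaks in its window. Its span overlaps that of Nr1d1 itself. Of these peaks 2 in PBS (21 and 34 fragments) and 1 in vasostatin-2 (20 fragments) lay outside Thra, 1353, 30 and 194 bp from the start of Nr1d1. Inside Thra a shared peak at chr11:98763261-98763505 held 17 fragments in PBS (7.50-fold, -log10 q 9.43) and 11 in vasostatin-2 (5.80-fold, -log10 q 4.83). The PBS summit was 4530 bp from an end of Nr1d1 and 5604 bp from an end of Thra. Thra also held an unshared peak of 13 fragments in PBS and one of 10 in vasostatin-2. Thrb, the other thyroid hormone receptor gene, had 1 vasostatin-2 peak of 6 fragments, 183166 bp from an end.

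Of the 3 retinoic acid receptor genes, Rarb and Rarg had a PBS peak within 1 kb of a listed start inside the span. Rarb had its PBS peak of 5 fragments (4.58-fold) 45 bp past its listed start, far from the ends of its 651 kb span. Another 2 PBS peaks (8 and 7 fragments) and 2 vasostatin-2 peaks (9 and 5) lay elsewhere in Rarb, and none was shared. Rarg had a PBS peak of 9 fragments (3.71-fold) 468 bp before its inner start and a vasostatin-2 peak of 8 fragments (4.97-fold) 1705 bp past its outer start. Rara had 1 PBS peak of 11 fragments, 1158 bp before a start.

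The 9 receptors for lipids, bile acids, xenobiotics and vitamin D had a PBS peak at 6 genes and a vasostatin-2 peak at 4, with 3 in both. Of all genes 29.5%, 28.0% and 17.5% did. Nr1h2, the LXR beta gene, had a shared peak just inside its start. It held 13 fragments in PBS (6.16-fold, -log10 q 6.03) and 7 in vasostatin-2 (4.14-fold, -log10 q 2.05), 518 and 375 bp past the start. A further PBS peak of 8 fragments at the other end of Nr1h2 lay 25 bp from the start of Pold1, a DNA polymerase delta subunit gene. Nr1h3, the LXR alpha gene, had 2 PBS peaks of 6 fragments at the ends of its span. They lay 155 bp from a start of Madd and 339 bp from a start of Acp2, and 7457 bp or more from the listed starts of Nr1h3.

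Ppard, the PPAR delta gene, had a shared peak of 10 fragments in each library, 8518 bp before its start and inside the span of its neighbour Def6. The fold was 5.76 in PBS and 5.59 in vasostatin-2, and both summits were at the same base. Pparg, which drives fat cell differentiation, had a PBS peak of 5 fragments 585 bp past its outermost start, a PBS peak of 5 inside the gene and a vasostatin-2 peak of 6 inside the gene. Single peaks of 5 to 7 fragments lay at Nr1h4 (FXR) and Nr1i2 (PXR) in PBS and at Nr1i3 (CAR) in vasostatin-2, the last of these 113 bp from an end of Tomm40l. Ppara and Vdr, the vitamin D receptor gene, had none.

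Of the 3 RXR genes, whose products are the common heterodimer partners, Rxrb had a PBS peak of 15 fragments (5.12-fold, -log10 q 5.11) 93 bp before its start. That summit was 29 bp from the start of Slc39a7, a zinc transporter gene. Rxra had a vasostatin-2 peak of 7 fragments inside the gene, and Rxrg had none. Both HNF4 genes, Hnf4a and Hnf4g, known from liver and gut, had none.

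Among 7 orphan receptors of the NR2 group, 3 had peaks in both lists (17.5% of all genes) and 4 had none (60.0%). Nr2c2, which encodes testicular receptor 4, had the member peak of highest fold in PBS, at 8.59-fold with 16 fragments (-log10 q 10.7), 219 bp before its start. In vasostatin-2 the overlapping peak held 8 fragments (5.58-fold, -log10 q 3.97), 367 bp before the start. Nr2f6, which encodes EAR2, had a PBS peak of 16 fragments (6.94-fold, -log10 q 8.20) 172 bp before its start and none there in vasostatin-2. The shared peak in the Nr2f6 window (15 and 11 fragments) lay 246 bp from a start of Use1 in PBS. Nr2c1 had 1 unshared peak in each list past its end, within Ndufa12, with 5 fragments in PBS (4.25-fold) and 12 in vasostatin-2 (7.93-fold). Nr2f1 and Nr2f2, the COUP-TF genes that shape mesoderm and veins, had none, and neither did Nr2e1 or Nr2e3.

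The 5 steroid receptor genes had no shared peak and none at a gene end. Of all genes 13.5% had a shared PBS peak, and 14.3% a PBS and 10.0% a vasostatin-2 peak at an end. A vasostatin-2 peak was found at 4 steroid receptor genes (28.0% of all genes) and a PBS peak at 2 (29.5%). Nr3c1, the glucocorticoid receptor gene, had a PBS peak of 16 fragments (7.68-fold, -log10 q 9.31) inside the gene, 28083 bp from an end. Its vasostatin-2 peak held 5 fragments (4.34-fold) at another site, 13918 bp from an end. No start of Nr3c1 was matched, so whether either peak lay near a transcript start could not be told. Nr3c2, the mineralocorticoid receptor gene, had a vasostatin-2 peak of 9 fragments (-log10 q 6.22) 2113 bp outside its span. Esr1, the estrogen receptor alpha gene, had 1 PBS peak of 9 fragments and 3 vasostatin-2 peaks of 7, 7 and 6, all inside its 394 kb span. Pgr had a vasostatin-2 peak of 4 fragments, the fewest in that list's member windows, and Esr2 had none.

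Esrra, whose product ERR alpha activates mitochondrial genes, had the gene-end peak with the most fragments. At chr19:6921919-6922428 it held 24 fragments in PBS (8.39-fold, -log10 q 14.0), and at chr19:6921727-6922287 it held 17 in vasostatin-2 (7.60-fold, -log10 q 9.36). The summits lay 366 and 278 bp before the start, just beyond the bases shown above, which both peaks reached. A PBS peak of 15 fragments at the other end of Esrra was 85 bp from the start of Prdx5, a peroxiredoxin gene, and an unshared vasostatin-2 peak of 9 fragments (6.24-fold) lay 8478 bp outside the span. Esrrg had 1 PBS peak of 7 fragments and 3 vasostatin-2 peaks of 7, 5 and 5 inside its 606 kb span, none shared, and Esrrb had none.

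The NR4A genes, immediate early genes whose products act without a known physiological ligand, each had a shared peak. Nr4a1 (NUR77) was the only member besides Thra with at least 4 PBS peaks, a count chosen after it was seen and reached by 0.192% of all genes. Its shared peaks held 17 and 13 fragments 7454 bp outside the span in PBS, 11 and 9 at the outer end of the span, and 10 and 7 beyond the other end. The last of these lay 547 bp in PBS and 207 bp in vasostatin-2 from a start of Atg101, an autophagy gene. At the listed Nr4a1 start, which lies inside the span, a PBS peak held 23 fragments (5.52-fold, -log10 q 8.36) 576 bp before the start, and no vasostatin-2 peak overlapped it. A vasostatin-2 peak of 10 fragments lay 2927 bp past that start.

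Nr4a2 (NURR1) had its shared peak 7711 bp past the start, at chr2:57116254-57116576 in PBS. It held 12 fragments in PBS (6.77-fold, -log10 q 6.60) and 15 in vasostatin-2 (8.40-fold, -log10 q 9.80), the only member pair with more fragments in vasostatin-2. Nr4a3 (NOR1) had its shared peak before the start, with 14 fragments in PBS (6.22-fold, -log10 q 6.44) and 10 in vasostatin-2 (6.10-fold, -log10 q 5.00). The summits lay 283 and 407 bp before the start. Both lists marked 3 of 3 NR4A genes (17.5% of all genes), and with 3 genes this is a description only.

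In the NR5, NR6 and NR0B group 2 of 5 genes had a PBS peak (29.5% of all genes) and 0 a vasostatin-2 peak (28.0%). Nr6a1, the germ cell nuclear factor gene, had a PBS peak of 9 fragments (5.55-fold, -log10 q 4.15) 50 bp past its start and another of 4 inside the gene. Nr0b2, which encodes the corepressor-like SHP, had a PBS peak of 10 fragments 3812 bp outside the span. Nr5a1, Nr5a2 and Nr0b1 had none.

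Summit fragments were set side by side for the 12 overlapping pairs. The vasostatin-2 library held fewer in 10, as many in 1 (Ppard) and more in 1 (Nr4a2). The vasostatin-2 library was 1.32 times as deep by the uniform background in the peak values. After division by that factor all 12 were lower in vasostatin-2, with log2 ratios from -1.40 at Nr2c2 to -0.08 at Nr4a2 and a median of -0.89. Over all 2651 overlapping pairs of the 2 lists 84.0% were lower and the median was -0.62. Since fragment numbers are small and there is 1 library for each treatment, these ratios compare libraries and not treatments.

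**Figure D4:**
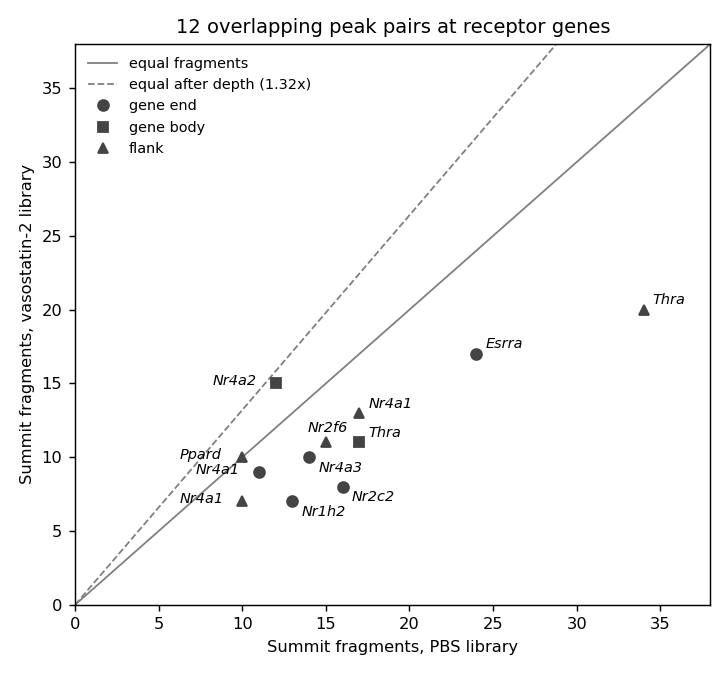
Summit fragments of the 12 overlapping peak pairs in receptor gene windows, PBS on the horizontal and vasostatin-2 on the vertical axis. The solid line marks equal fragments and the dashed line equal fragments after the depth factor of 1.32, and symbols give the location of the PBS peak. All 12 pairs lie below the dashed line, and Nr4a2 (12 and 15 fragments) alone lies above the solid line.

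Base composition of the start windows moved with the peaks. The 13 member windows with a PBS summit within 1 kb had a median GC content of 66.0% (42.3 to 82.7) and a median of 25 CpG. The 45 with no peak in either list had 57.3% (40.3 to 83.0) and 9 CpG. Over all protein-coding genes the medians were 63.3% and 24 CpG with a PBS peak and 54.7% and 9 CpG with none. Several GC-rich member starts had no peak, such as Nr4a2 (81.7%), Rxra (83.0%) and Ppara (74.7%), and Nr6a1 had a PBS peak with 42.3%. The part of base composition in the peaks was not tested.

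Genes that work with the receptors were counted in the same windows. Of 12 coactivator and coregulator genes 6 had a PBS peak and 6 a vasostatin-2 peak, with 5 in both. Carm1, a histone arginine methyltransferase gene, had a shared gene-end peak of 50 fragments in PBS (15.0-fold) and 28 in vasostatin-2 (10.2-fold), above every receptor gene. Ppargc1a, which encodes the coactivator PGC-1 alpha, had a shared peak far inside the gene with 4 fragments in PBS (3.72-fold) and 13 in vasostatin-2 (7.92-fold). Ppargc1b had unshared peaks of 8 and 11 fragments at different sites, and Pprc1 had 2 unshared PBS peaks, of which the gene-end peak of higher fold held 14 fragments.

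Of 20 genes that make, carry or chaperone ligands and receptors, 9 had a PBS and 7 a vasostatin-2 peak, with 4 in both. Cyp27b1, which makes active vitamin D, had a shared peak 8600 bp outside its span in PBS, with 15 and 18 fragments. Srd5a1, a steroid 5-alpha-reductase gene, had a shared gene-end peak of 8 and 11 fragments. Crabp1, a retinoic acid carrier gene, had a PBS peak of 11 fragments in the flank, and Aldh1a1, a retinaldehyde dehydrogenase gene, 3 PBS peaks of which the highest held 9.

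Of 18 known target genes of receptors 6 had a PBS and 7 a vasostatin-2 peak, with 4 in both. Abca1, the LXR-regulated cholesterol exporter gene, had a shared peak inside the gene with 10 fragments in PBS (6.56-fold) and 19 in vasostatin-2 (9.50-fold). Klf9, a glucocorticoid and thyroid hormone target, had 2 PBS peaks, an unshared one of 20 fragments (7.91-fold) 134 bp from its start and one that overlapped its flank peak of 11 fragments in vasostatin-2. Cpt1a, a PPAR target of fatty acid oxidation, had 4 PBS and 3 vasostatin-2 peaks, and Greb1, an estrogen target, 1 vasostatin-2 peak of 11 fragments. Lists of 12 to 20 genes stand here as counts beside 29.5% and 28.0% of all genes, with no test.

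Among the 5 REV-ERB and ROR genes 3 had a PBS peak and 4 a vasostatin-2 peak, and 3 had a shared peak. Nr1d2 held 22 and 15 fragments at its end, and the Nr1d1 end peak is the one counted in the Thra window, with 34 in PBS and 20 in vasostatin-2. Of 4 smooth muscle markers Myh11 and Tagln had a peak in each list and Acta2 and Cnn1 had 0. NR1D1 peaks do not measure expression, so the cell type label was not checked by them.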

How the data were processed

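NR1D1 CUT&Tag peak lists of 1 PBS and 1 vasostatin-2 library were used. Trimmomatic 0.39, BWA 0.7.17 and MACS2 2.2.7.1 and build mm10 are named in the submitters' processing notes, without roles or settings, and the use of a control is not stated there. The files have no header and follow the 10-column order of MACS2. The deposited fold enrichment is a ratio of the summit to its background, and the authors' deposited significance columns hold the summit's -log10 p-value and its -log10 q-value. The deposited score equals the -log10 q times 10, rounded down, and was not used.

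Positions are written from 1. Fragments at each summit were recovered by solving fold and -log10 p for whole fragments within 0.0005, which succeeded for 100.0% of 7377 PBS and 8816 vasostatin-2 peaks, with a close second solution at 4 PBS peaks. In 1000 simulated peaks per list 100.0% were returned. Background floors of 0.31 and 0.381 fragments and steps of 195.75 and 182.5 bp per 10000 bp, a window that was assumed, gave the relative depth of 1.32. Fragment totals of the libraries are unknown.

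Genes and starts came from RefSeq tables of GRCm38.p6. Overlaps of at least 1 bp equalled those of bedtools 2.31.1. Members and lists were chosen with earlier results of these data known, and motifs of CREB, CArG and retinoic acid type after reading the sequences. Peak values were named by rule for members with a shared peak, a peak within 1 kb of a start or end, or 1 of the 5 highest folds of a list, and for up to 4 genes of highest fold in other lists. Every other member was accounted for by its number of peaks, and the fragments or distances given for those with a peak fall outside this rule and were chosen after they were seen. Alternatives changed the window, the placing of peaks, the threshold, the gene-end limit and the overlap. IgG libraries were not analysed here.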

Additional observations from a re-analysis of the deposited data

How the results depend on the processing

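Of 38 recomputed values 31 stayed within the interval of the reported share or within 1.5 times the reported count, and 7 did not, all under stricter peak rules. With a -log10 q of at least 5, members with a PBS peak numbered 11 (13.9% of all genes), with a vasostatin-2 peak 6 (9.61%) and with both 4 (6.12%), and 57.1% of vasostatin-2 member peaks (of 7) overlapped a PBS peak. With at least 8 fragments, members with a vasostatin-2 peak numbered 12 (16.0% of all genes) and with both 10 (11.0%), and the overlapping share of vasostatin-2 peaks was 58.8%. Fewer peaks remain under these rules by their construction. The gene-end share was higher in PBS than in vasostatin-2 in the 5 settings in which it was recomputed. Restricting peaks to those nearest the member's own ends was chosen after seeing the data. Of the member peaks in 1 list, 11 of 25 in PBS and 13 of 20 in vasostatin-2 held fewer than 8 fragments. Such small numbers limit every statement about a peak missing from the other list. No paired analysis was possible because each treatment has 1 NR1D1 library.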
